A study of Homo sapiens with 6 samples.

Results

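Transcript levels of neuropilin, semaphorin and plexin genes were compared between MDAMB468 cells in which IGFBP2 was activated and control cells. The list held 10 genes, namely the neuropilins NRP1 and NRP2, the semaphorins SEMA3A, SEMA3C, SEMA3F and SEMA4B, and the plexins PLXNA1, PLXNA2, PLXNB1 and PLXNB2. They were chosen by symbol with the results of this comparison known, so their levels and differences are given as a description with no test. Of the 10, 9 were analysed among 10487 genes in all, and NRP2 was not analysed here. All 9 had a mean above 5 CPM (the read count of a gene relative to the size of its library, as scaled by the authors) in both groups, so none entered the table only through the group in which it was high.

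Semaphorins are secreted or membrane-bound ligands, first described as guidance cues for growing axons and also active in blood vessels and epithelial tumours. Class 3 semaphorins are secreted and bind mainly to neuropilins, which have a short intracellular tail and pass the signal on through type A plexins. Class 4 semaphorins are anchored in the membrane and bind plexins directly, above all type B plexins. Activated plexins turn off small GTPases of the Ras and Rap families and act on the cytoskeleton, and neuropilins also bind VEGF ligands.

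MDAMB468 is an established triple negative breast cancer line. The control group was 3 libraries labelled as wild type and untreated, and the IGFBP2 overexpression group was 3 libraries of untreated MDAMB468-VHP-IGFBP2 cells, a line made by stable lentiviral delivery of a catalytically dead Cas9 fused to transcriptional activators together with a guide RNA to IGFBP2, kept by drug selection and cell sorting. Whether the control cells carried the activator without a guide is not given in the sources used here, so the activator itself and the IGFBP2 guide cannot be told apart, and only 1 engineered line was sequenced. The study sequenced the 3′ ends of transcripts to ask which processes IGFBP2 acts on in these EGFR-dependent cells, and the libraries are described as biological replicates. Reads on the listed genes numbered 4579587, 3530444 and 2497353 in the control libraries and 2547997, 3068198 and 3069734 in the IGFBP2 overexpression libraries, replicates 1 to 3 in order here and below. At these depths 1 read was worth 0.222 to 0.404 CPM.

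IGFBP2, which encodes a secreted protein that binds insulin-like growth factors, checked the group labels. It rose from 106 ± 26.4 to 747 ± 373 CPM (SD, n = 3), a log2 fold change of 2.73 (SE 0.33, limma, Benjamini-Hochberg adjusted p = 0.0148), with no overlap between the groups. All 8 of the listed epithelial and basal-like breast markers were present, led by KRT19 at 2041 to 3198 CPM and EGFR at 805 to 1358 CPM, and the groups overlapped for each of the 8, including EPCAM, CDH1, KRT5, KRT8, KRT17 and KRT18. Their summed level was 6259, 4755 and 5622 CPM in the control libraries and 6508, 6618 and 5328 CPM in the IGFBP2 overexpression libraries. None of the 2 hormone receptor genes ESR1 and PGR, the 6 endothelial or the 4 leukocyte markers was among the genes analysed. Of the 5 fibroblast and stromal markers only COL1A1 was analysed, at 9.36 to 27.5 CPM with overlapping groups.

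The RefSeq promoter table for GRCh38.p14 had a usable entry for 7 of the 9 analysed genes, and NRP1 and SEMA3A had none. The 3 windows of 250 bases that ended at a transcript start of GENCODE 44 and held no annotated exon are shown, so that the base composition around these starts can be seen. Capitals mark GGGCGG or its reverse complement CCGCCC, the GC box bound by Sp1-family factors. The windows are SEMA3F at chr3:50158769-50159018 on the plus strand, PLXNA1 at chr3:126982865-126983114 on the plus strand and PLXNA2 at chr1:208244385-208244634 on the minus strand, each written 5′ to 3′ along its gene.
SEMA3F: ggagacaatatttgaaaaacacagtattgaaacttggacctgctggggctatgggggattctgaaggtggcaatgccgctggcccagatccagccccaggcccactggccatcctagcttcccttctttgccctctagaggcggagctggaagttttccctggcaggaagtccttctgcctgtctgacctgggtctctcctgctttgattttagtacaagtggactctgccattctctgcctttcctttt
PLXNA1: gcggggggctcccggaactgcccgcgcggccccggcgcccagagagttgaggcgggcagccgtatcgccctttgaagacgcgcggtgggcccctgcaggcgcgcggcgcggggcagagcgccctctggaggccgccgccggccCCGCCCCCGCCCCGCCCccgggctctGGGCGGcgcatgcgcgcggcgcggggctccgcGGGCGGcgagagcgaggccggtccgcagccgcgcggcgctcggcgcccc
PLXNA2: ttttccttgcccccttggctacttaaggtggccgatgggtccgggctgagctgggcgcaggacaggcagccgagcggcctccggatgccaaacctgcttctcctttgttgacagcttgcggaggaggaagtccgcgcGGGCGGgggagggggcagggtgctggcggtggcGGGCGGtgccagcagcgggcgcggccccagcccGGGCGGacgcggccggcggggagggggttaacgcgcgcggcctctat
The SEMA3F window ends at a transcript start inside the gene, 3974 bases from the 5′ end of the gene, and had a GC content of 52.8% and no GC box. The PLXNA1 window likewise lies inside the gene, with its transcript start 422 bases from the 5′ end, and had a GC content of 84.4% and 5 GC boxes on both strands, some of which overlap, and the PLXNA2 window had 72.4% and 3. Of the windows not shown, those of SEMA3C and PLXNB1 overlap annotated exons. Those of SEMA4B, PLXNB1 and PLXNB2 end 1, 119 and 207 bases from the nearest GENCODE 44 transcript start. The starts used for SEMA4B and PLXNB2 lie 31317 and 5977 bases from the 5′ end of the gene. With these windows included, GGGCGG was found on either strand in 5 of the 7 windows, against 42.6% of the 35116 promoters in the table over the same length. The median GC content of all promoters was 58%. Of the other motifs searched on both strands, CCAAT (32.0% of all promoters) was found once, in SEMA4B. The TATA box TATAAA (10.7% of all promoters), the AP-1 motif TGANTCA (6.57%) and the E-boxes CACGTG (6.34%) and CAGGTG (17.5%) were found in none of the 7.

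NRP1, the receptor for SEMA3A and other class 3 semaphorins and a co-receptor for VEGF, was higher in every IGFBP2 overexpression library than in any control library. NRP1 (ENSG00000099250) lies on chr10:33177492-33336262 of GRCh38, on the minus strand. Its level was 5.11, 7.23 and 5.66 CPM in the control libraries and 13.6, 21.3 and 15.8 CPM in the IGFBP2 overexpression libraries. Control values lay close together near the 5 CPM minimum of the table, and the lowest IGFBP2 overexpression library was still well above the highest control library. The means were 6.0 ± 1.10 and 16.9 ± 3.95 CPM (SD, n = 3), a ratio of 2.82. On the log2(CPM + 1) scale the difference was 1.34 (SE 0.22), at rank 95 from the top of all 10487 genes. These levels rest on few reads, 23, 26 and 14 in the control libraries and 35, 66 and 48 in the IGFBP2 overexpression libraries. In bulk RNA, more cells that express NRP1 and more NRP1 RNA per cell cannot be told apart. An antisense lncRNA overlaps an exon of NRP1, and whether the counting used strand is not given in the sources used here, so reads of the pair cannot be told apart.

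**Figure D1:**
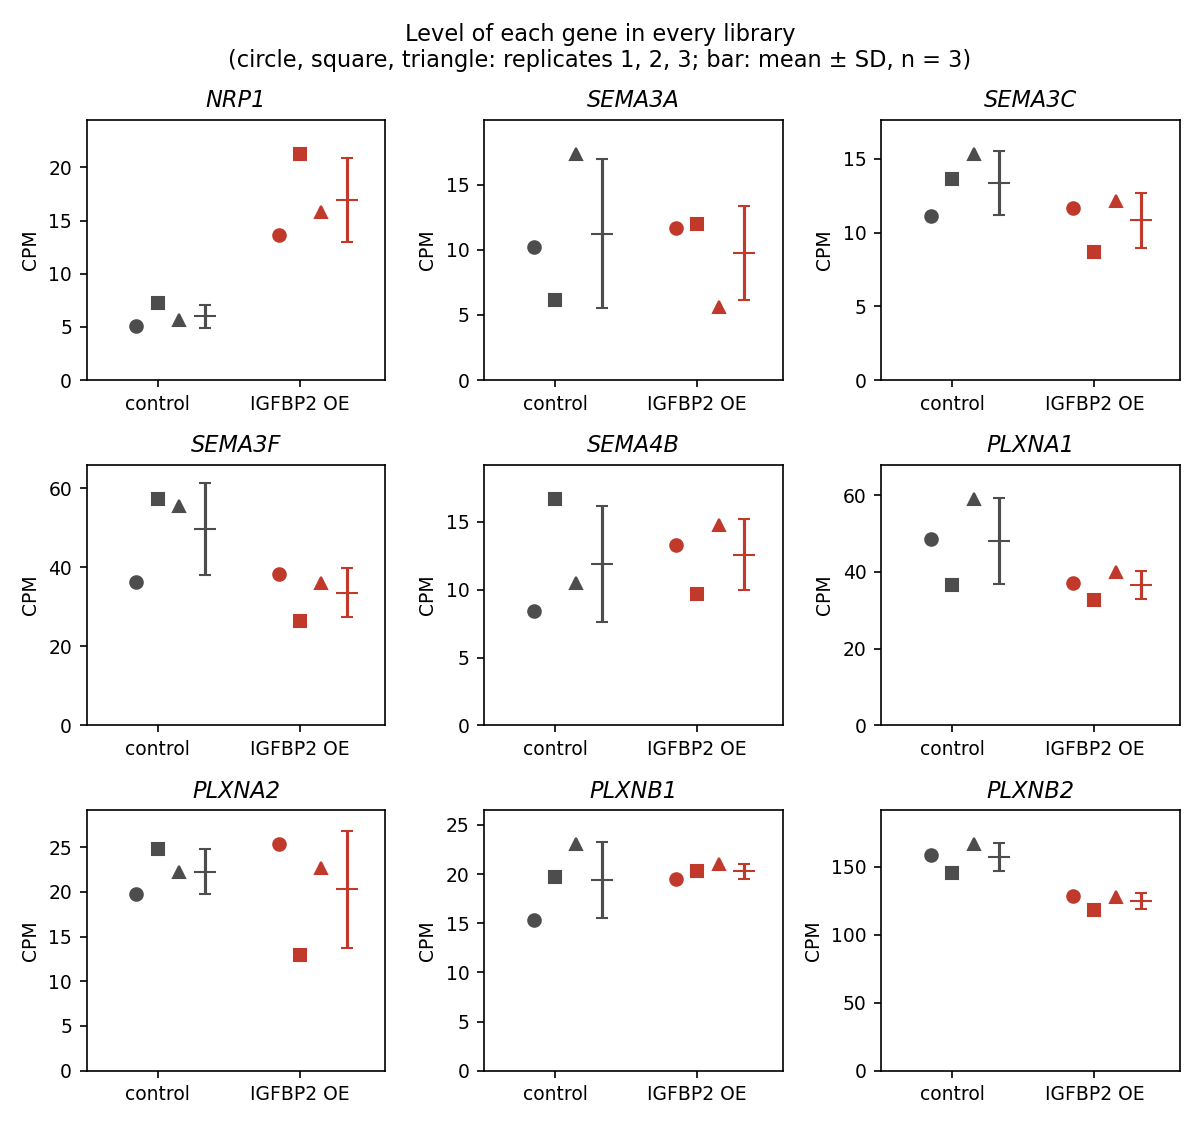
Level of each of the 9 genes in CPM (vertical axes from 0, each with its own scale) in the 3 control libraries (grey) and the 3 IGFBP2 overexpression libraries (red), with the mean and SD beside them. NRP1 was 5.11 to 7.23 CPM in the control libraries and 13.6 to 21.3 CPM in the IGFBP2 overexpression libraries, PLXNB2 was lower in every IGFBP2 overexpression library, and the groups overlapped for the other 7 genes.

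Of the plexins, only PLXNB2 had groups that did not overlap among the 4 members, with lower values under IGFBP2 overexpression. PLXNB2 (ENSG00000196576, chr22:50274979-50307646, minus strand), a receptor for class 4 semaphorins such as SEMA4C, was 159, 146 and 167 CPM in the control libraries and 128, 118 and 128 CPM in the IGFBP2 overexpression libraries. Both groups were tight, and every IGFBP2 overexpression library was below every control library. The means were 157 ± 10.5 and 125 ± 5.90 CPM (SD, n = 3), a ratio of 0.793 and a log2 difference of -0.33 (SE 0.17). PLXNB1 (ENSG00000164050, chr3:48403854-48430086, minus strand), the receptor for SEMA4D, was 15.3, 19.7 and 23.0 CPM in the control libraries and 19.5, 20.3 and 21.0 CPM in the IGFBP2 overexpression libraries. The narrow IGFBP2 overexpression values lay inside the control range, and the log2 difference was 0.08 (SE 0.20).

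The type A plexins, which carry the signal of neuropilin-bound class 3 semaphorins, overlapped between groups. PLXNA1 (ENSG00000114554, chr3:126982693-127037389, plus strand) was 48.6, 36.7 and 59.0 CPM in the control libraries and 37.0, 32.6 and 40.1 CPM in the IGFBP2 overexpression libraries, with a log2 difference of -0.37 (SE 0.22). Control replicate 2 lay below IGFBP2 overexpression replicates 1 and 3. PLXNA2 (ENSG00000076356, chr1:208022242-208244384, minus strand) was 19.8, 24.8 and 22.2 CPM in the control libraries and 25.3, 12.9 and 22.7 CPM in the IGFBP2 overexpression libraries, with a log2 difference of -0.17 (SE 0.26). IGFBP2 overexpression replicate 2 alone was low, and without it the difference had the opposite sign, at 0.11. Summed over PLXNA1, PLXNA2 and PLXNA3, type A plexins were 121 ± 15.5 CPM in control and 113 ± 21.8 CPM in IGFBP2 overexpression libraries (SD, n = 3). Summed over PLXNB1 and PLXNB2, type B plexins were 176 ± 12.2 and 145 ± 5.87 CPM, a difference carried by PLXNB2.

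Among the ligands, each of the 4 semaphorins overlapped between groups. SEMA3F (ENSG00000001617, chr3:50155045-50189075, plus strand), a secreted ligand that binds NRP2 in preference to NRP1, was 36.2, 57.3 and 55.4 CPM in the control libraries and 38.2, 26.5 and 36.1 CPM in the IGFBP2 overexpression libraries. Control replicate 1 lay among the IGFBP2 overexpression libraries and the other 2 control libraries lay above them all. The means were 49.6 ± 11.7 and 33.6 ± 6.26 CPM (SD, n = 3), with a log2 difference of -0.54 (SE 0.24), the most negative of the 9. An antisense gene, SEMA3F-AS1, overlaps an exon of SEMA3F, so its reads are likewise uncertain.

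SEMA3A (ENSG00000075213, chr7:83955777-84492724, minus strand), the best known ligand of NRP1, was 10.2, 6.12 and 17.4 CPM in the control libraries and 11.7, 11.9 and 5.58 CPM in the IGFBP2 overexpression libraries. The lowest value was IGFBP2 overexpression replicate 3 and the highest control replicate 3, and the log2 difference was -0.15 (SE 0.38). SEMA3C (ENSG00000075223, chr7:80742538-80922359, minus strand), a ligand of both neuropilins, was 11.1, 13.6 and 15.4 CPM in the control libraries and 11.7, 8.72 and 12.2 CPM in the IGFBP2 overexpression libraries, with a log2 difference of -0.28 (SE 0.21). SEMA4B (ENSG00000185033, chr15:90160604-90229679, plus strand), a membrane-bound semaphorin, was 8.44, 16.7 and 10.5 CPM in the control libraries and 13.3, 9.68 and 14.8 CPM in the IGFBP2 overexpression libraries, with a log2 difference of 0.11 (SE 0.27). For SEMA3A and SEMA4B the sign depended on single libraries. The SEMA3A difference was -0.48 to 0.20 and the SEMA4B difference -0.09 to 0.36 with each library left out in turn, and PLXNB1 likewise ranged from -0.07 to 0.21. SEMA3C and PLXNA1 kept their sign, with the smallest differences of -0.14 without IGFBP2 overexpression replicate 2 and -0.21 without control replicate 3.

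The 4 analysed class 3 semaphorins, SEMA3A, SEMA3C, SEMA3E and SEMA3F, summed to 69.0, 90.7 and 118 CPM in the control libraries and 71.3, 62.9 and 67.7 CPM in the IGFBP2 overexpression libraries. The groups overlapped through control replicate 1. Set against this sum, NRP1 was 7.40%, 7.98% and 4.79% in the control libraries and 19.1%, 33.8% and 23.3% in the IGFBP2 overexpression libraries. The largest part of the sum was SEMA3F, which prefers NRP2, so the sum is not one of NRP1 ligands alone. SEMA3E was next by mean, at 18.4 CPM in control and 13.1 CPM in IGFBP2 overexpression libraries. The share reflects NRP1 and the sum together, so its separation is not that of NRP1 alone. The mean sum was 92.6 CPM in control and 67.3 CPM in IGFBP2 overexpression libraries. The 5 analysed class 4 semaphorins summed to 66.8 ± 12.04 and 66.6 ± 5.88 CPM (SD, n = 3).

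Over the 9 genes, 3 differences were positive and 6 negative, with a median of -0.17 and a median size of 0.28 on the log2(CPM + 1) scale. Over all 10487 genes the median size was 0.21. Groups did not overlap for 2 of the 9, NRP1 higher and PLXNB2 lower, against 18% of all genes, of which 9.43% were higher and 8.61% lower with IGFBP2 activation. Nothing is read from this count, since the genes were chosen on this comparison. The central 90% of all genes lay between -0.61 and 0.66, and NRP1 was the only one of the 9 outside that range.

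Because 3′ end counting yields about 1 read per captured transcript whatever its length, CPM was compared between genes without dividing by length. In control cells the order by mean level was PLXNB2, SEMA3F, PLXNA1, PLXNA2, PLXNB1, SEMA3C, SEMA4B, SEMA3A and NRP1. The libraries of PLXNB2 were clear of those of SEMA3F and those of PLXNA1 were clear of those of PLXNA2, and every other pair of neighbours overlapped. In IGFBP2 overexpression cells NRP1 stood at place 6 of the 9 in place of 9, with libraries that overlapped those of its neighbours PLXNB1 and SEMA4B.

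The spread between libraries was compared with the spread that counting reads alone would give. NRP1 had a coefficient of variation (CV) of 18.4% in control and 23.4% in IGFBP2 overexpression libraries, against 22.4% and 14.2% from counting. The control libraries of NRP1 thus varied no more than their read numbers allow. The CV was above the counting value for 7 of 9 genes in control and 6 of 9 in IGFBP2 overexpression libraries. SEMA3A in control cells was farthest above it, with 50.7% between libraries against 17.0% from counting. PLXNB2, the gene with the most reads, had 6.71% and 4.73% between libraries against 4.40% and 5.28% from counting. The counting values cover sampling of reads only.

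**Figure D2:**
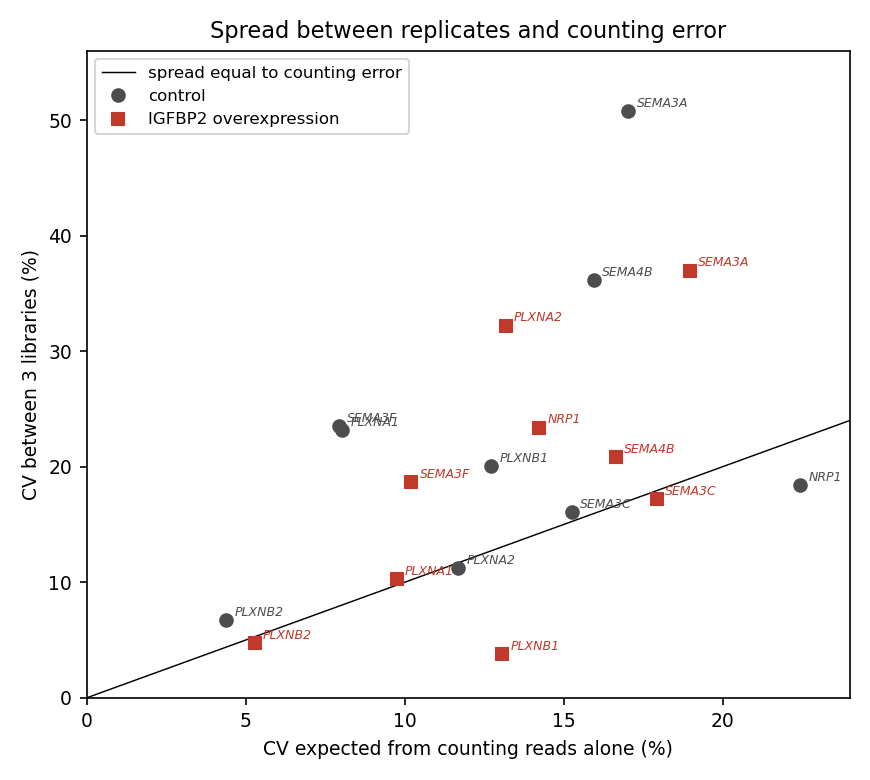
Coefficient of variation between the 3 libraries of a group (vertical axis, %) against that expected from counting reads alone (horizontal axis, %) for the 9 genes in control (grey circles) and IGFBP2 overexpression (red squares) libraries. Points on the line vary as counting allows, NRP1 in control cells lies below it, and SEMA3A in control cells lies farthest above it at 50.7%.

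Among the semaphorins and plexins outside the list, none passed the test. Limma on all 10487 genes called 66 at an adjusted p under 0.05, which is 0.629% of all genes, with 45 (0.429%) higher and 21 (0.2%) lower. Of 16 other semaphorins 7 were analysed and of 5 other plexins 1, and 0 of these 8 were called, with 2 at an unadjusted p under 0.05, a level that 13% of all genes reached. SEMA6B, a membrane-bound ligand of type A plexins, was 3.11, 8.34 and 5.26 CPM in the control libraries and 14.0, 11.3 and 7.88 CPM in the IGFBP2 overexpression libraries, a log2 fold change of 0.92 (SE 0.32, limma adjusted p = 0.278). IGFBP2 overexpression replicate 3 lay just below control replicate 2, so the groups overlapped. SEMA4F, a membrane-bound class 4 semaphorin, went from 5.24 ± 1.02 to 7.35 ± 0.23 CPM (SD, n = 3) with no overlap (log2 fold change 0.43, limma adjusted p = 0.380). SEMA7A, which is held in the membrane by a lipid anchor, went from 8.11 ± 0.73 to 6.36 ± 1.32 CPM (SD, n = 3), also with no overlap, a log2 fold change of -0.32 (limma adjusted p = 0.556) that was -0.16 without IGFBP2 overexpression replicate 2. PLXNA3, a further plexin partner of neuropilins, was 50.5 ± 9.63 and 56.4 ± 12.3 CPM (SD, n = 3), with a log2 fold change of 0.15 (limma adjusted p = 0.843) that ranged from 0.015 to 0.33 with single libraries left out. The others, SEMA3E, SEMA4A, SEMA4C and SEMA4D, had overlapping groups and log2 fold changes from -0.37 to 0.09.

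**Figure D3:**
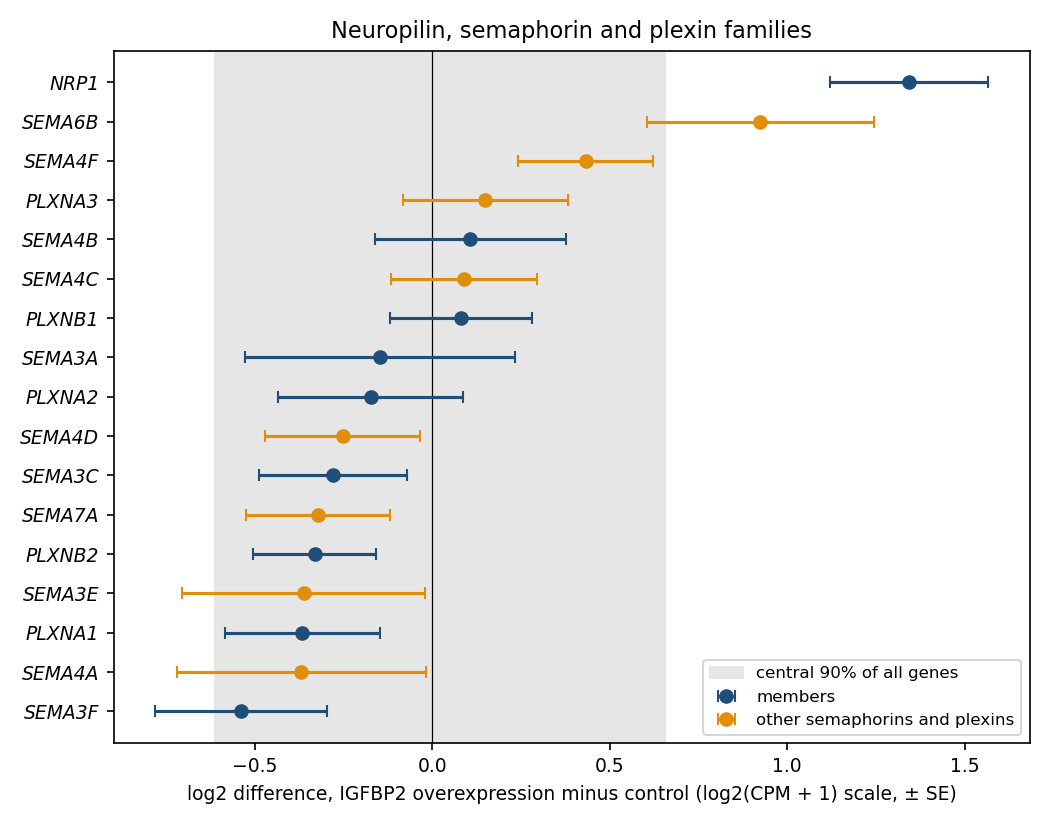
Log2 difference between IGFBP2 overexpression and control libraries on the log2(CPM + 1) scale, with its standard error, for the 9 members (blue) and 8 other semaphorins and plexins (orange), over the central 90% of all 10487 genes (grey). NRP1 at 1.34 and SEMA6B at 0.92 lie above the grey range, and the other 15 genes lie inside it.

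Genes that act with these receptors were read from the same fit. Across the other semaphorins and plexins, VEGF ligands and receptors, co-receptors, intracellular partners and processing proteases, 53 of 84 listed genes were analysed, and limma called 0 of them against 0.629% of all genes. At an unadjusted p under 0.05 there were 10, 6 higher and 4 lower, against 13% of all genes, and limma voom on recovered reads called 1, LIMK2. Groups did not overlap for 13, 6 higher and 7 lower, against 18% of all genes. The median log2 fold change was 0.0044 and its median size 0.25, against 0.21 over all genes.

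Of the VEGF ligands and receptors, 2 of 8 were analysed, both ligands that bind NRP1. VEGFA was 25.0 ± 5.63 and 26.3 ± 0.65 CPM and VEGFB 96.0 ± 20.5 and 103 ± 9.82 CPM in control and IGFBP2 overexpression libraries (SD, n = 3), with limma adjusted p = 0.891 and 0.863. Both pairs of groups overlapped.

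Of the co-receptors and partner adhesion proteins, 6 of 9 were analysed and 0 called. L1CAM, an adhesion molecule that joins NRP1 in SEMA3A receptor complexes, was 34.4, 33.7 and 15.4 CPM in the control libraries and 49.1, 47.4 and 51.2 CPM in the IGFBP2 overexpression libraries. The IGFBP2 overexpression libraries lay close together above all control libraries, of which replicate 3 was low (log2 fold change 0.89, SE 0.30, limma adjusted p = 0.263). Without control replicate 3 the log2 fold change was 0.52. MET and ERBB2, receptor tyrosine kinases that associate with type B plexins, had log2 fold changes of -0.28 and -0.29 (limma adjusted p = 0.686 and 0.746) and overlapping groups. Both rested on single libraries, with MET at -0.07 without control replicate 1 and ERBB2 at 0.02 without control replicate 2.

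Of the proteases that cut semaphorins or neuropilins, 5 of 7 were analysed and 0 called. FURIN, the proprotein convertase that cleaves class 3 semaphorins, was 32.6, 34.8 and 29.1 CPM in the control libraries and 48.3, 57.8 and 48.3 CPM in the IGFBP2 overexpression libraries. The groups were clear of each other, with a log2 fold change of 0.66 (SE 0.18) that did not pass the threshold (limma adjusted p = 0.185). ADAM10, a protease that sheds membrane proteins, and PCSK7, another proprotein convertase, had log2 fold changes of 0.13 and -0.17 (limma adjusted p = 0.838 and 0.843). Each changed sign with a single library left out. ADAM10 was -0.0064 without control replicate 3 and PCSK7 0.0271 without control replicate 1.

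The intracellular partners were the best covered, with 32 of 39 analysed, 14 with positive and 18 with negative log2 fold changes, and 0 called. LIMK2, a kinase that inactivates the actin-severing protein cofilin, was 58.4, 74.8 and 84.1 CPM in the control libraries and 39.4, 37.8 and 37.4 CPM in the IGFBP2 overexpression libraries. All IGFBP2 overexpression libraries were below all control libraries, with means of 72.4 ± 13.0 and 38.2 ± 1.03 CPM (SD, n = 3). The log2 fold change was -0.89 (SE 0.20, limma adjusted p = 0.106), and the adjusted p was 0.0459 with limma voom on recovered reads. ARHGEF12, which binds type B plexins, went from 44.3 ± 6.23 to 29.6 ± 2.75 CPM (log2 fold change -0.56, limma adjusted p = 0.264), and RRAS, a GTPase that plexins turn off, from 26.9 ± 6.09 to 39.5 ± 0.73 CPM (log2 fold change 0.56, limma adjusted p = 0.294), both with no overlap (SD, n = 3). The other genes of this list at an unadjusted p under 0.05, named after their values were seen, were RANBP9 and GSK3B with negative and PIP5K1C with positive log2 fold changes of -0.55, -0.49 and 0.60. Without IGFBP2 overexpression replicate 3, that of RANBP9 was -0.32.

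**Figure D4:**
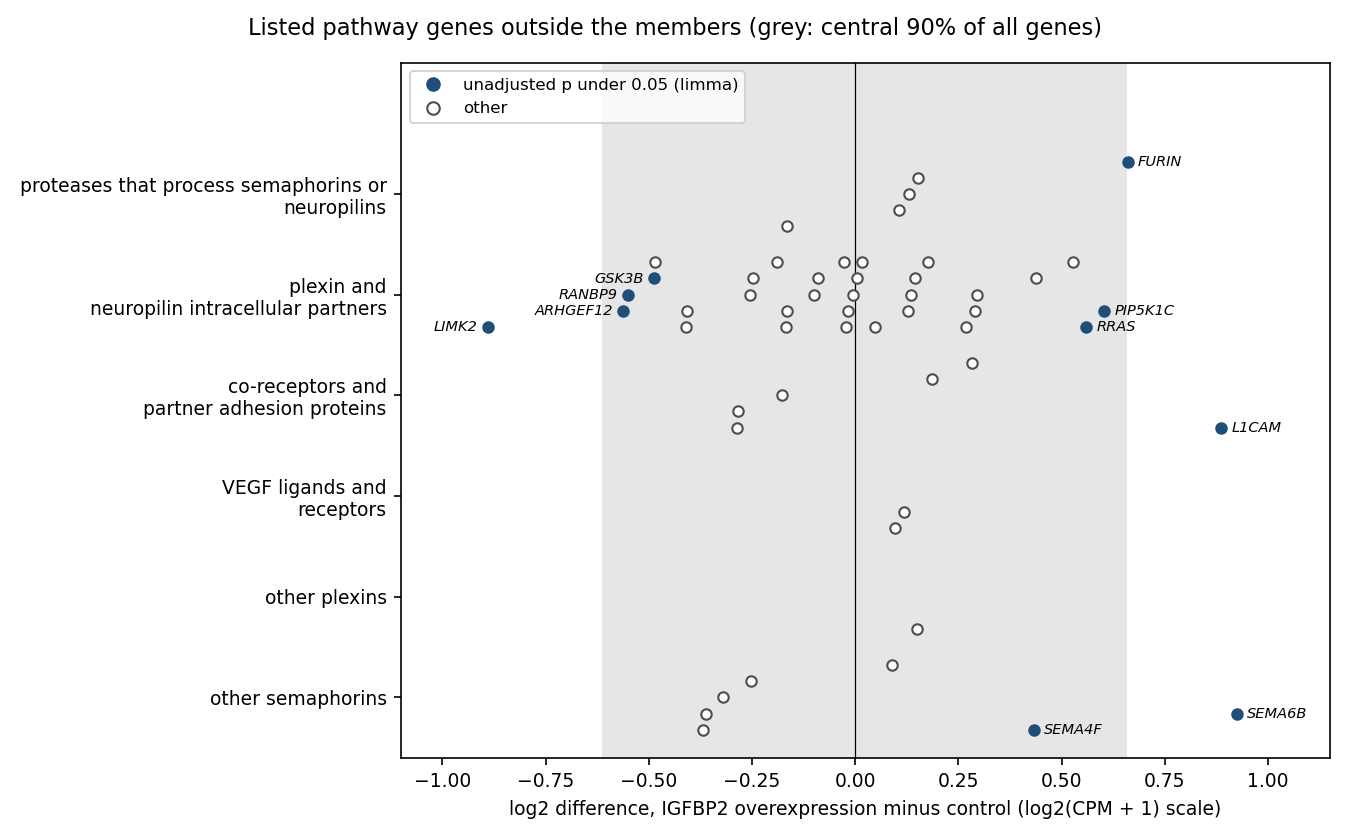
Log2 fold change (horizontal axis, IGFBP2 overexpression minus control on the log2(CPM + 1) scale) of the 53 pathway genes outside the members, 1 row per list, over the central 90% of all genes (grey). Filled and named points are the 10 with an unadjusted limma p under 0.05, from LIMK2 at -0.89 to SEMA6B at 0.92, and none passed after adjustment.

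The genes whose deposited log2 values followed NRP1 most closely over the 6 libraries were MFSD12, TTLL7, ERLIN2, TRIM16 and CD59, with Pearson r of 0.994, 0.994, 0.993, 0.990 and 0.987. These r values are a description over 6 libraries in 2 groups, and all 5 genes were higher in every IGFBP2 overexpression library, with log2 fold changes of 0.49, 0.67, 0.42, 1.28 and 0.77. TRIM16, an E3 ubiquitin ligase of the tripartite motif family, was called by limma, a call lost with any 1 library left out other than control replicate 2 while the log2 fold change stayed at 1.19 to 1.37, and CD59 encodes a membrane inhibitor of complement. Within the neuropilin, semaphorin and plexin families the closest were SEMA4F (r = 0.87) and SEMA6B (r = 0.79), and PLXNB2 ran most strongly the other way (r = -0.98). The shared difference between the groups enters each of these values.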

How the data were processed

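Total RNA of 3 control and 3 IGFBP2 overexpression samples was sequenced from the 3′ end. The authors trimmed the reads, mapped them with STAR (build hg38), assigned them to genes with htseq-count (HTSeq 0.9.1 in the submitters' processing notes), applied edgeR normalization and removed genes that averaged no more than 5 CPM in both conditions. The deposited values are log2(CPM + 1), on the log2 scale. All 6 value columns were used, and 10462 of 10487 identifiers matched a symbol in GENCODE 44 (GRCh38). Read numbers were back-calculated by taking the smallest CPM in a library as 1 read and refining this unit on the lower values (100% came out whole within 0.1 read).

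The deposited log2 values of all genes were fitted with limma 3.58.1 (R 4.3.3), condition being the sole term and the variance prior having no trend, with Benjamini-Hochberg adjusted p-values and a threshold of 0.05. The fits were tested on simulated data. CPM is 2 to the power of the value, less 1. Depth was 2497353 to 4579587 reads on listed genes, and counting error covers the sampling of reads only. Levels, correlations, promoter windows and figures were computed in Python 3.11.15.

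The members and lists were chosen with earlier results of these data known. Named were IGFBP2, all members, the 3 smallest p-values per pathway list, the 5 genes most correlated with NRP1 and all cell type markers. Alternatives were other scalings, variance models and pseudocounts, a minimum of 10 CPM, a block for replicate number and the omission of single libraries.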

Additional observations from a re-analysis of the deposited data

How the results depend on the processing

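The gene counts, the member differences and the fold changes of IGFBP2 and most other named genes were recomputed under 16 alternatives. SEMA4F and SEMA7A have no value at a minimum of 10 CPM. Class sums, correlations, cell type markers and the fold changes of SEMA3E, SEMA4A, SEMA4C and SEMA4D were not recomputed. All 9 member differences kept their sign under every scaling, variance model, pseudocount and filter, and SEMA3A, SEMA4B, PLXNA2 and PLXNB1 changed sign only with a library left out. The NRP1 difference was 1.17 to 1.48 with each library left out in turn and 0.98 to 1.5 under the others. The count of 66 genes was 160 with a mean-variance trend, 135 with limma voom on recovered reads, 129 with a pseudocount of 5 and 37 with a pseudocount of 0.1. With each library left out in turn it was 12 to 79, with 12, 13 and 17 genes without IGFBP2 overexpression replicate 1, IGFBP2 overexpression replicate 2 and control replicate 3. The trend, voom and the pseudocount of 5 each called 1 listed pathway gene, LIMK2, in place of 0, and no listed pathway gene was called with a library left out. IGFBP2 kept a log2 fold change of 2.35 to 2.97 with each library left out. Single libraries turned 5 fold changes, with ranges of -0.35 to 0.60 for PTK7, -0.0756 to 0.24 for VEGFA, -0.57 to 0.0176 for ERBB2, -0.0064 to 0.24 for ADAM10 and -0.42 to 0.0271 for PCSK7. The fold changes of MET (-0.52 to -0.07), VEGFB (0.02 to 0.28), PLXNA3 (0.015 to 0.33), RANBP9 (-0.68 to -0.32), L1CAM (0.52 to 1.08) and SEMA7A (-0.41 to -0.16) kept their sign but moved by over 1.5 times with a single library left out, and those of SEMA4F (0.27), SEMA6B (0.62) and SEMA7A (-0.21) did so with a pseudocount of 5. The cause of these shifts was not tested. With replicate number as a replicate block the count was 55, of which 42 were among the 66. Deviations of same-numbered libraries from their group means had correlations of 0.17, -0.06 and 0.08. Libraries of different number were not compared in this way, so whether a shared number pairs the libraries is not settled. Control NRP1 rests on 14 to 26 reads, which limits the precision of its ratio.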

Other observations

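PTK7, a receptor pseudokinase that associates with plexins, was singled out after its values were seen. It was 125, 105 and 157 CPM in the control libraries and 99.4, 99.4 and 374 CPM in the IGFBP2 overexpression libraries. The log2 fold change was 0.28 (limma adjusted p = 0.852) and, without IGFBP2 overexpression replicate 3, -0.35 (limma adjusted p = 0.622).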
